A study of Mus musculus with 9 samples.

Results

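The genes described here belong to the nuclear part of oxidative phosphorylation. They encode subunits of respiratory chain complexes I to IV and of the ATP synthase, complex V, and 3 assembly factors of complex III. Members were chosen by gene symbol alone, as any gene whose symbol begins with Nduf (followed by a, b, c, s or v and a digit), Uqc, Cox with a digit from 4 to 8 (without Cox6a2) or Atp5, or is Sdha, Sdhb, Sdhc or Sdhd, and that had a probe set carrying only that symbol. This gave 83 of the 19938 genes measured: 35 of complex I, 4 of complex II, 11 of complex III, 16 of complex IV and 17 of complex V. The rule reads only symbols, although it was set with earlier results of these data known.

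The study asked how expression differs among dendritic cell (DC) progenitors and in what order it changes in their development. Transcript levels were measured on 9 Affymetrix arrays, 3 for each of 3 populations sorted from pelvis, tibia and femur bone marrow: Zbtb46- CDPs, then Zbtb46+ CDPs, and last Pre-CD8 DCs. All 3 populations, the Zbtb46- cells included, came from mice heterozygous for the Zbtb46-GFP reporter, so 1 Zbtb46 allele carried the reporter in every group. CDPs are common DC progenitors, and the GFP signal divides them by transcription of Zbtb46, a factor of the classical DC lineage. Pre-CD8 DCs are precursors of the CD8 DCs now called cDC1. The labels give no sort gates, no age or sex of the mice, and no word on whether replicates were separate mice or pools, so p-values here measure only the spread between arrays.

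Complexes I and II pass electrons from NADH and succinate to ubiquinone, complex III passes them on to cytochrome c, and complex IV hands them to oxygen. Complexes I, III and IV pump protons across the inner mitochondrial membrane, and the ATP synthase makes ATP from their return. Haematopoietic progenitors are known to raise or lower this machinery as they leave quiescence, divide and differentiate, and in many cells its nuclear genes are transcribed under NRF1 and the ETS factor GABP.

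Zbtb46 itself had a log2 signal of 6.27, 6.92 and 6.41 in Zbtb46- CDPs, 7.50, 7.05 and 7.18 in Zbtb46+ CDPs and 7.60, 7.39 and 7.53 in Pre-CD8 DCs, with no overlap between the Zbtb46- arrays and the others. The summed linear signal of 9 cDC1 markers was 11479.3 to 12641.5 in Zbtb46- CDPs, 19447.2 to 22028.6 in Zbtb46+ CDPs and 33841.3 to 34581.7 in Pre-CD8 DCs. That of Flt3, Csf1r and Kit was 6083.4 to 6252.4, 4135.1 to 5208.3 and 5678.0 to 5883.8, but these genes moved differently. In the same order of groups, the mean log2 signal of Csf1r was 11.22, 10.31 and 7.56. That of Kit was 10.47, 10.68 and 11.58, and that of Flt3 was 11.19, 10.70 and 11.29. Replicate 1 of both CDP groups stood apart in Xist, with a log2 signal of 5.59 and 5.30, against 11.85 to 12.29 on the other 7 arrays. The Y-linked Eif2s3y was higher on both, at 6.92 and 6.51, against 3.63 to 3.78 on the others. All Pre-CD8 DC arrays were thus high in Xist and low in Eif2s3y, whereas each CDP group held arrays of both kinds. The summed signal of 15 granulocyte markers, all of them measured and with only Retnlg below the table median on every array, was 28290.7 to 33201.3 in Zbtb46- CDPs and 1479.3 to 2494.3 in Pre-CD8 DCs. In Zbtb46+ CDPs it was 33512.3 in replicate 1 and 8520.4 and 8464.1 in the other two. Counts of calls over all members below are also given without both of these replicate 1 arrays, and for the gene lists where stated. The log2 signals of all probe sets were also spread less widely in Zbtb46+ CDPs, with an SD of 2.044, 1.959 and 1.974, against 2.05 to 2.137 in Zbtb46- CDPs and 2.048 to 2.063 in Pre-CD8 DCs.

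Sequences just upstream of the start sites are shown for 5 members, to let the motifs known for these genes be read beside their expression. They were picked after the values had been seen, from members that were lower in Zbtb46+ CDPs and hold an NRF1 or ETS motif close to the start. Each is the 150 bases before the transcription start in RefSeq on GRCm38.p6, written 5′ to 3′ along the gene's strand, with NRF1 motifs and ETS motifs (CCGGAAG, or CTTCCGG read on the other strand) in capitals.
Sdha, chr13:74350241-74350390, - strand: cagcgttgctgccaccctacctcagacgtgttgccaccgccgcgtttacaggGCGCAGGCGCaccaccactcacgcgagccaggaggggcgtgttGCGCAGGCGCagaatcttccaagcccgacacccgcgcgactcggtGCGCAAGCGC
Sdhd, chr9:50603850-50603999, - strand: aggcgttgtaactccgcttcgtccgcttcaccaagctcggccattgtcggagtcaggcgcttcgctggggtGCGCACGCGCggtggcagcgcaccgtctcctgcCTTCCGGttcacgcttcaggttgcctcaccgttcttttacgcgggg
Ndufs3, chr2:90904722-90904871, - strand: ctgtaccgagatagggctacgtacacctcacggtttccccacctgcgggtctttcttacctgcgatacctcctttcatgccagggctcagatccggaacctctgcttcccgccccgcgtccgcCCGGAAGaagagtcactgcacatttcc
Uqcr11, chr10:80406822-80406971, - strand: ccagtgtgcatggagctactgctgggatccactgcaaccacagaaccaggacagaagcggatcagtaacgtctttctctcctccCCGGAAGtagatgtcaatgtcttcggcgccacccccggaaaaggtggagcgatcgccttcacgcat
Uqcrh, chr4:116075071-116075220, - strand: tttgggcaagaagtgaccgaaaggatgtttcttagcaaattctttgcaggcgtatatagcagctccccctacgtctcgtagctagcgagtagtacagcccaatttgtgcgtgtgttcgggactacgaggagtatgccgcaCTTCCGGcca
Sdha, the flavoprotein of complex II, held 3 NRF1 motifs that began 98, 55 and 10 bases before the start. Sdhd, a membrane anchor of the same complex, held an NRF1 motif at 79 and an ETS motif at 46 bases. Ndufs3, Uqcr11 and Uqcrh each held 1 ETS motif, at 27, 66 and 10 bases before the start.

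Over whole windows of 250 bases before to 50 after the start, searched on both strands, 69 of the 83 members had an entry in the RefSeq promoter table, 5 of them with more than 1 window. The NRF1 motif was present in 17 of the 69 (24.6%), against 5.19% of all 27025 genes in the table and 13.7% of the 5477 in it with a mean log2 signal of at least 8. The ETS motif was also present in 17 members (24.6%), against 9.93% of all genes and 24.4% of the brighter ones. The YY1 motif AAGATGGC was in 15.9% of members, against 3.19% and 6.45%. The shares for E-box CACGTG (10.1% of members, 8.09% of all genes, 12.5% of the brighter ones), Sp GGGCGG (43.5%, 38.2% and 71.6%), CCAAT (44.9%, 41.1% and 43.2%), ERR TCAAGGTCA (2.9%, 0.466% and 0.329%) and the ZNF143 motif (2.9%, 0.322% and 0.968%) complete the motifs searched. Of the 23 members with a window that were lower in Zbtb46+ CDPs, 6 held the NRF1 motif, 6 the ETS motif and 3 the YY1 motif. Of the 46 that were not called, 11, 11 and 8 did. These matches describe letters in a window and do not show binding.

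The first comparison, Zbtb46+ against Zbtb46- CDPs, asks how the machinery differs within the CDP compartment. Some respiratory chain and ATP synthase transcripts were lower in Zbtb46+ CDPs and most were not called. Of the 83 members, 29 (34.9%) were lower, 0 higher and 54 not called at an adjusted p under 0.05 (limma, Benjamini-Hochberg over all genes), where 10.6% of all genes were called lower and 3.85% higher. The lower calls numbered 11 of 35 in complex I, 3 of 4 in complex II, 7 of 11 in complex III, 4 of 16 (25.0%) in complex IV and 4 of 17 (23.5%) in complex V. The median log2 difference of the members was -0.33, against 0.04 for all genes, and 80 of 83 estimates were below 0. It was -0.36 in complex I, -0.57 in complex II, -0.54 in complex III, -0.13 in complex IV and -0.30 in complex V, and these medians were not tested against each other. The complex III members include 3 assembly factors, all called lower on the probe sets used, with a median of -0.59. Its 3 core subunits had a median of -0.29 (1 called lower) and its 5 small subunits of -0.33 (3 called lower). Without 5 dim isoforms restricted to other tissues, the complex IV median was -0.33, and with the brighter restricted isoform Cox6b2 also left out it was -0.26. In 53 members all 3 Zbtb46+ arrays lay below all 3 Zbtb46- arrays, as in 17.4% of all genes, and in 0 members did they lie above, as in 11.8% of all genes. Of the 6640 genes with a mean log2 signal of at least 8, 2180 lay wholly below in this way and 818 wholly above.

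Bright genes in general were lower on Zbtb46+ replicates 2 and 3, but not on replicate 1. Centred on each gene's mean over all arrays, their median was 0.025, -0.142 and -0.094 in Zbtb46+ CDPs. It was 0.154, 0.009 and 0.035 in Zbtb46- CDPs and 0.017, 0.022 and 0.016 in Pre-CD8 DCs. Zbtb46+ replicate 1 thus lay within the Zbtb46- range, whereas the members' median was lowest on it (-0.298). Of the 83 members, 76 had a mean log2 signal of at least 8. The 6640 genes above that level had a median log2 difference of -0.15. Of these, 20.5% were called lower, close to the shares of complexes IV and V called lower, and 7.5% higher. After quantile normalization, which gives every array the same distribution of values, the median of these bright genes was -0.01. The members' median was then -0.19, with 15 called lower and 0 higher, against 8.11% lower and 5.61% higher among all genes. The 15 were Ndufa4, Ndufa9, Ndufa10, Ndufb5, Ndufs3 and Ndufv1 of complex I, Sdha and Sdhb of complex II, Uqcc1, Uqcr11, Uqcrc2 and Uqcrh of complex III, Cox7a2l of complex IV, and Atp5a1 and Atp5g1 of complex V. All of them were among the 29, and they left 1 call in complex IV and 2 in complex V. The medians by complex were then -0.25, -0.44, -0.43, -0.08 and -0.17 for complexes I to V, where the complex III value again includes the assembly factors. That of complex IV was -0.15 without the dim restricted isoforms and -0.11 with Cox6b2 also left out. In a bulk sample fewer cells of a type and less RNA per cell cannot be told apart, and the part of the general shift of bright genes in the deposited differences was not tested.

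**Figure D1:**
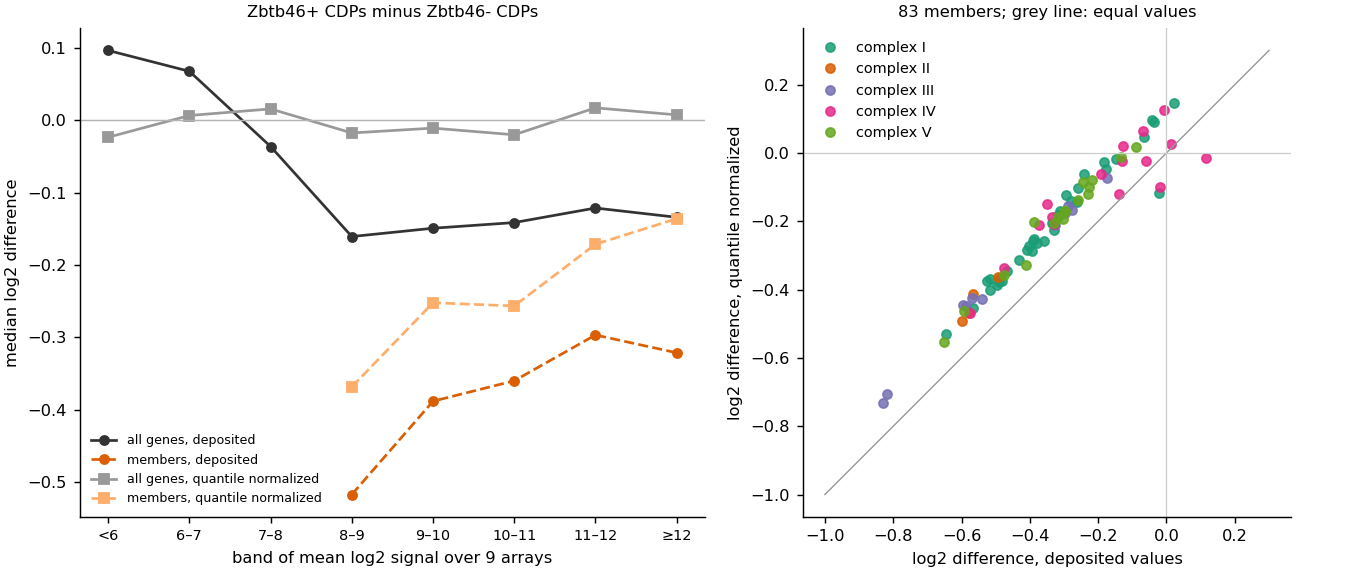
Median log2 difference between Zbtb46+ and Zbtb46- CDPs by band of mean log2 signal (left; bands with at least 5 members shown for the members) and each member's difference before and after quantile normalization (right; colours are complexes, the grey line marks equal values). The median of all genes was -0.12 to -0.16 in the bands from 8 upwards and near 0 after normalization, and the members' points lie below 0 in 80 of 83 cases before it and 74 after it.

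Each array's own level gives the same order of the groups. After each gene was centred on its mean over the 9 arrays, the members' median log2 signal was 0.19, 0.06 and 0.15 in Zbtb46- CDPs, -0.30, -0.20 and -0.08 in Zbtb46+ CDPs, and 0.03, 0.15 and 0.02 in Pre-CD8 DCs. All 3 Zbtb46+ arrays were therefore below the other 6, and replicate 1 was lowest. The lowest array of a member was Zbtb46+ replicate 1 for 44 members, replicate 2 for 26 and replicate 3 for 4. Zbtb46+ CDPs had the lowest group mean for 75 members, Pre-CD8 DCs for 6 and Zbtb46- CDPs for 2. After quantile normalization the array medians were 0.10, 0.07 and 0.10, then -0.20, -0.11 and -0.02, and then -0.001, 0.10 and -0.01, so that Zbtb46+ replicate 3 lay just below the lowest Pre-CD8 DC array.

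**Figure D2:**
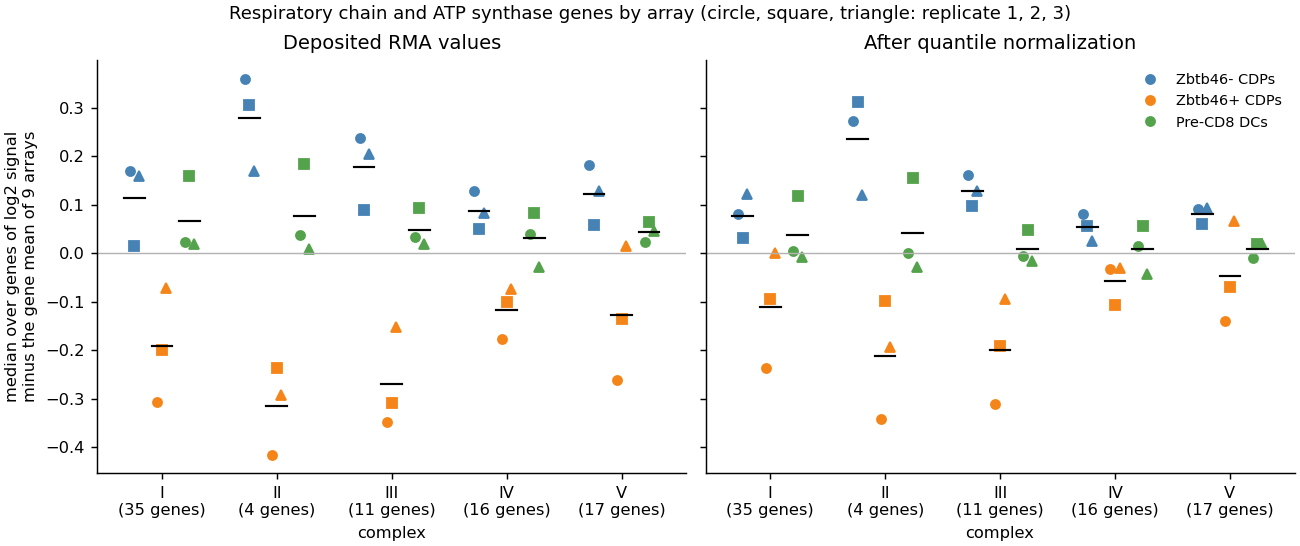
Median over the genes of each complex of the log2 signal minus the gene's mean over 9 arrays, for deposited values (left) and after quantile normalization (right); points are arrays, bars group means. Complex II spans the widest range, from -0.42 to 0.36 in deposited values, and in complex V replicate 3 of the Zbtb46+ CDPs lies above 0 on both scales.

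With both replicate 1 arrays that stood apart in Xist left out, 30 members were called lower in Zbtb46+ CDPs (13.8% of all genes were) and the median was -0.23. Of the 29, 23 were among the 30, and Ndufa8, Ndufb3, Ndufs6, Sdha, Uqcc2 and Uqcc3 were not. The 7 gained were Atp5d, Atp5mpl, Cox6b2, Cox7b, Ndufa7, Ndufs7 and Ndufs8. Leaving out Zbtb46+ replicate 1 alone gained the same 7 and Uqcrc1 and lost Uqcc2. With the replicate number as a block, 33 were lower (12.3% of all genes were). Ndufs6 was then lost (adjusted p = 0.056), and Atp5mpl, Ndufa6, Ndufa7, Ndufb8 and Ndufs5 passed with adjusted p from 0.0372 to 0.0431. Leaving out Zbtb46- replicate 1 alone gave 15 calls, leaving out Zbtb46- replicate 3 gave 16 and leaving out Zbtb46+ replicate 2 gave 19. The summed granulocyte marker signal was as high on Zbtb46+ replicate 1 as on the Zbtb46- arrays and lower on the other Zbtb46+ arrays. Its genes differed in this. Elane read 11.65 on Zbtb46+ replicate 1, against 11.21 to 11.47 in Zbtb46- CDPs. Ctsg read 9.11 there and 9.18 on both other Zbtb46+ arrays, against 11.70 to 11.83. Ngp read 12.36 there, 5.39 and 5.73 on the other Zbtb46+ arrays and 10.48, 5.70 and 6.84 in Zbtb46- CDPs. In Pre-CD8 DCs it read 8.30, 5.78 and 8.54. The part of these markers in the members' differences was not tested.

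In complex I, which takes electrons from NADH, the electron-input and quinone-site core subunits and the accessory subunits were all represented among the lower genes. Ndufs3, a core subunit next to the quinone site, had a log2 signal of 10.85, 10.71 and 10.80 on the Zbtb46- CDP arrays, 10.06, 10.22 and 10.14 on the Zbtb46+ CDP arrays and 10.59, 10.63 and 10.44 on the Pre-CD8 DC arrays. All Zbtb46+ values lay below all others, and the fall of 0.65 ± 0.08 (SE) on the log2 scale was 1.57-fold (adjusted p = 0.00107). Ndufs1, the largest iron-sulfur subunit of the electron-input arm, fell by 0.53 ± 0.10, from 8.69 ± 0.14 to 8.16 ± 0.16 (mean ± SD, n = 3; adjusted p = 0.01). Ndufv1, which binds NADH and the flavin, had values of 10.91, 10.75 and 10.81 on the Zbtb46- CDP arrays, 10.46, 10.26 and 10.45 on the Zbtb46+ CDP arrays and 10.27, 10.49 and 10.25 on the Pre-CD8 DC arrays. Both later populations lay wholly below the Zbtb46- CDPs, with a fall of 0.43 ± 0.09 (adjusted p = 0.0138), and overlapped each other.

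Among the other core subunits, Ndufv2 (-0.26), Ndufs7 (-0.28) and Ndufs8 (-0.33) had estimates below 0 that did not pass the test, with adjusted p from 0.0576 to 0.175. Without Zbtb46+ replicate 1, Ndufs7 was -0.44 (adjusted p = 0.00385) and Ndufs8 -0.41 (adjusted p = 0.0144), and both passed. Of the 28 accessory subunits, 8 were lower: Ndufa4, Ndufa8, Ndufa9, Ndufa10, Ndufb2, Ndufb3, Ndufb5 and Ndufs6. Ndufb5, an accessory subunit of the membrane arm, read 10.74, 10.33 and 10.60 in Zbtb46- and 9.97, 9.87 and 10.13 in Zbtb46+ CDPs, without overlap, a fall of 0.57 ± 0.12 (adjusted p = 0.012). Ndufa10 was tighter, at 11.06, 11.05 and 10.99 against 10.54, 10.54 and 10.48, a fall of 0.52 ± 0.09 (adjusted p = 0.00427). Ndufa4, carried in complex I by its name although its protein is now placed in complex IV, fell by 0.47 ± 0.08 (adjusted p = 0.00608). At the other end, Ndufa3, Ndufb7, Ndufb10 and Ndufv3 had estimates from -0.07 to 0.02, and differences between subunits were not tested.

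Complex II, succinate dehydrogenase, which is also an enzyme of the citric acid cycle, was lower in 3 of its 4 subunits. Sdhb, the iron-sulfur subunit, read 11.38, 11.08 and 11.14 on the Zbtb46- CDP arrays, 10.54, 10.67 and 10.66 on the Zbtb46+ CDP arrays and 11.05, 11.17 and 11.04 on the Pre-CD8 DC arrays. Its Zbtb46+ values were the lowest 3 of the 9, with a 1.49-fold fall of 0.58 ± 0.09 (adjusted p = 0.00356). Sdha, the flavoprotein that oxidises succinate, read 11.62, 11.50 and 11.50 on the Zbtb46- CDP arrays, 10.75, 11.01 and 11.06 on the Zbtb46+ CDP arrays and 11.16, 10.67 and 11.10 on the Pre-CD8 DC arrays. It fell by 0.60 ± 0.14 (adjusted p = 0.0192; 0.0701 without both replicate 1 arrays), with Zbtb46+ replicate 1 lowest among the CDP arrays and Pre-CD8 DC replicate 2 lower still. The membrane anchor Sdhd read 9.35, 9.36 and 9.25 in Zbtb46- and 8.58, 8.87 and 8.81 in Zbtb46+ CDPs, a fall of 0.57 ± 0.09 (adjusted p = 0.00326; 0.0507 after quantile normalization). Sdhc, the other anchor, had an estimate of -0.49 ± 0.17 that did not pass the test (adjusted p = 0.0962), although its 3 Zbtb46+ arrays, at 10.00, 9.80 and 9.68, lay below the Zbtb46- arrays at 10.37, 10.40 and 10.19.

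Complex III, the cytochrome bc1 complex, held the members with the largest differences, Uqcc1 and Uqcr11. Uqcc1, an assembly factor for cytochrome b, read 8.76, 8.07 and 8.28 in Zbtb46- and 7.63, 7.29 and 7.69 in Zbtb46+ CDPs, a 1.78-fold fall of 0.83 ± 0.18 (adjusted p = 0.0157). Its groups did not overlap, and Zbtb46- replicate 1 stood well above the other arrays. Uqcc2 and Uqcc3, the other 2 assembly factors in the family, fell by 0.57 ± 0.15 and 0.59 ± 0.13 (adjusted p = 0.0347 and 0.0182), and neither passed after quantile normalization. A dimmer Uqcc2 probe set did not pass in a limma fit of all one-symbol probe sets (-0.34, adjusted p = 0.0674), so the Uqcc2 call depends on the probe set. Uqcr11, a small subunit, read 10.46, 10.09 and 10.35 on the Zbtb46- CDP arrays, 9.76, 9.13 and 9.55 on the Zbtb46+ CDP arrays and 9.84, 9.78 and 9.92 on the Pre-CD8 DC arrays. The 2 CDP groups did not overlap, Zbtb46+ replicate 2 was lowest, and the fall of 0.82 ± 0.16 was 1.76-fold (adjusted p = 0.00828).

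Of the 3 larger complex III subunits, Uqcrc2, a core protein, fell by 0.54 ± 0.08, from 10.70, 10.47 and 10.52 to 9.97, 9.99 and 10.10 (adjusted p = 0.00216). Its partner Uqcrc1 (-0.29 ± 0.10, adjusted p = 0.0794) and the Rieske iron-sulfur protein Uqcrfs1 (-0.28 ± 0.11, adjusted p = 0.146) did not pass the test. The hinge protein Uqcrh, which helps cytochrome c dock, read 12.20, 12.24 and 12.13 on the Zbtb46- CDP arrays, 11.44, 11.65 and 11.68 on the Zbtb46+ CDP arrays and 12.05, 12.31 and 11.98 on the Pre-CD8 DC arrays. Its fall of 0.60 ± 0.10 (adjusted p = 0.0054) left all 3 Zbtb46+ arrays below the other 6. Uqcrq fell by 0.33 ± 0.09 (adjusted p = 0.0338), and Uqcr10 and Uqcrb had estimates of -0.30 and -0.18 that did not.

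Complex IV, cytochrome c oxidase, was lower in 4 of 16 genes, or in 4 of 10 (40.0%) without the 6 isoforms restricted to other tissues. The supercomplex factor Cox7a2l, which joins complexes III and IV, read 11.70, 11.50 and 11.55 on the Zbtb46- CDP arrays, 10.77, 11.06 and 11.20 on the Zbtb46+ CDP arrays and 11.56, 11.80 and 11.66 on the Pre-CD8 DC arrays. The Zbtb46+ arrays were the lowest 3, a 1.49-fold fall of 0.58 ± 0.12 (adjusted p = 0.0115), and replicate 1 was lowest of these. Cox4i1, a regulatory subunit, fell by 0.37 ± 0.09 (adjusted p = 0.0199), Cox6b1 by 0.35 ± 0.08 (adjusted p = 0.0152) and Cox6c by 0.33 ± 0.07 (adjusted p = 0.0171), and none of these 3 passed after quantile normalization. Cox5a (-0.07 ± 0.10, adjusted p = 0.651) and Cox5b (-0.13 ± 0.09, adjusted p = 0.37), both on the matrix side, and Cox6a1 (-0.01 ± 0.11, adjusted p = 0.969) and Cox8a (-0.13 ± 0.15, adjusted p = 0.608) were not called.

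Several complex IV subunits have isoforms restricted to other tissues, such as muscle, lung or testis. Cox4i2, Cox7a1, Cox7b2, Cox8b and Cox8c, with Ndufa4l2 of complex I, had group means between 4.77 and 7.36, on either side of the table median of 6.82, a level not shown to lie above background. None of these 6 was called in any comparison on deposited values. Cox6b2, known from testis, was brighter, at 8.95, 8.87 and 8.96 in Zbtb46- CDPs, 8.82, 8.36 and 8.59 in Zbtb46+ CDPs and 8.54, 8.60 and 8.38 in Pre-CD8 DCs. Cox7a2, the common isoform of its pair (-0.19 ± 0.10, adjusted p = 0.256), and Cox7b (-0.48 ± 0.16, adjusted p = 0.0802) were not called in the first comparison.

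In the ATP synthase, 2 of 5 subunits of the F1 part were lower, and they are the pair that forms its catalytic hexamer. Atp5a1, the alpha subunit, read 12.02, 11.82 and 11.91 on the Zbtb46- CDP arrays, 11.34, 11.24 and 11.40 on the Zbtb46+ CDP arrays and 11.52, 11.40 and 11.45 on the Pre-CD8 DC arrays. The Zbtb46- arrays were the highest 3, and the fall of 0.59 ± 0.08 was 1.51-fold (adjusted p = 0.00145). Atp5b, the catalytic beta subunit, fell by 0.39 ± 0.07, from 12.57, 12.51 and 12.53 to 12.20, 12.12 and 12.13 (adjusted p = 0.00478; 0.239 after quantile normalization). Atp5o, which ties the head to the peripheral stalk, fell by 0.30 ± 0.08 (adjusted p = 0.0355; 0.187 after quantile normalization). The central stalk genes Atp5c1, Atp5d and Atp5e had estimates of -0.30, -0.22 and -0.23 that did not pass. Atp5d was -0.43 (adjusted p = 0.00555) without Zbtb46+ replicate 1 and -0.45 (adjusted p = 0.00801) without both replicate 1 arrays.

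Atp5g1, Atp5g2 and Atp5g3 encode the same mature c-ring subunit from 3 genes. On the probe sets used, only Atp5g1 was called, with values of 10.19, 10.04 and 10.10 in Zbtb46- and 9.81, 9.42 and 9.67 in Zbtb46+ CDPs and a fall of 0.48 ± 0.10 (adjusted p = 0.0158). Atp5g2 had an estimate of -0.26 ± 0.09 (adjusted p = 0.0791) and Atp5g3 of -0.13 ± 0.08 (adjusted p = 0.324). In a limma fit of all one-symbol probe sets, another Atp5g2 probe set of similar signal passed (-0.32, adjusted p = 0.0466). A further Atp5g2 probe set did not pass there (-0.26, adjusted p = 0.102). The call of Atp5g2 thus depends on the probe set, and the differences between the 3 genes were not tested. None of the 5 small membrane subunits was called.

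A further 10 members had a Zbtb46+ replicate 1 value at least 0.5 below both other Zbtb46+ arrays: Atp5h, Atp5md, Atp5mpl, Atp5pb, Cox7b, Ndufa5, Ndufb6, Ndufb9, Ndufs4 and Uqcrb. Atp5pb, a subunit of the peripheral stalk, read 11.11, 11.06 and 11.25 in Zbtb46- CDPs and 9.83, 11.15 and 11.21 in Zbtb46+ CDPs, and Ndufb6 read 11.29, 11.34 and 11.41 and 10.23, 11.12 and 11.20. Replicates 2 and 3 of Atp5pb lay within the Zbtb46- range, so its mean difference of -0.41 rested on 1 array. None of these 10 was called on deposited values. Without that array Atp5mpl (-0.40, adjusted p = 0.0179) and Cox7b (-0.26, adjusted p = 0.0341) passed. The 10 genes' low values on that array, which also stood apart in Xist, were not shared by Atp5d, Cox6b2, Cox8a, Ndufs7, Sdhc and Uqcr11, which were at least 0.2 higher on it than on both other Zbtb46+ arrays.

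**Figure D3:**
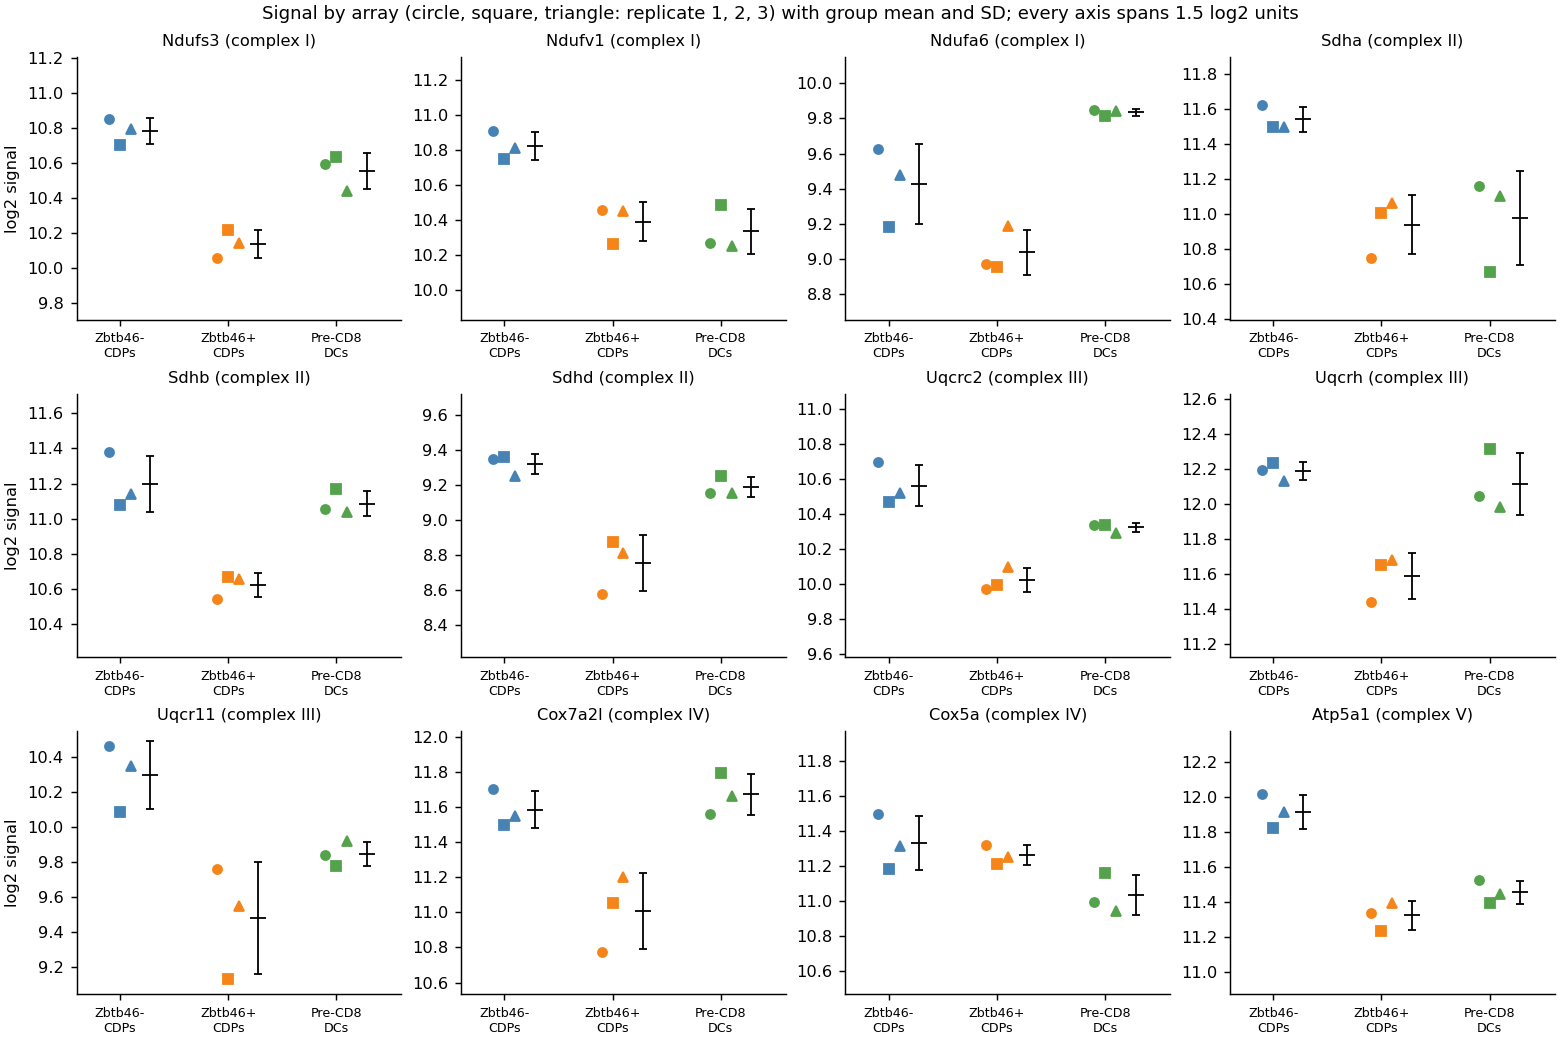
Log2 signal of 12 named members on each array (circle, square and triangle for replicates 1, 2 and 3) with group mean and SD, on vertical axes of equal span. Ndufs3, Sdhb, Sdhd, Uqcrh and Cox7a2l are lowest in the middle group, and the Pre-CD8 DC values of Ndufs3 lie between those of both CDP groups. Ndufv1, Sdha and Atp5a1 are low in both later groups, and Ndufa6 is highest in Pre-CD8 DCs.

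The second comparison, Pre-CD8 DCs against Zbtb46+ CDPs, uses the same Zbtb46+ arrays as the first, so opposite signs in the 2 comparisons are not independent of each other. Here 8 of 83 members (9.64%) were higher and 0 lower, where 4.76% of all genes were higher and 1.86% lower. Among genes with a mean log2 signal of at least 8, 10.0% were higher, so the members' share was close to that of bright genes. The 8 were Ndufa6, Ndufa7 and Ndufs3 of complex I, Sdhb and Sdhd of complex II, Uqcrfs1 and Uqcrh of complex III, and Cox7a2l of complex IV, with 0 of 17 in the ATP synthase. The members' median was 0.24, against -0.03 for all genes and 0.11 for bright genes, and 76 of 83 estimates were above 0. Medians by complex were 0.24, 0.32, 0.30, 0.12 and 0.20 for complexes I to V. In 44 members all Pre-CD8 DC arrays lay above all Zbtb46+ arrays, as in 12.6% of all genes, and in 2 members all lay below, as in 10.3%. Of the 6640 bright genes, 1769 lay wholly above and 645 wholly below.

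Ndufa6, an accessory subunit of the complex I matrix arm, rose most among the members. It read 9.63, 9.18 and 9.48 on the Zbtb46- CDP arrays, 8.97, 8.95 and 9.19 on the Zbtb46+ CDP arrays and 9.85, 9.81 and 9.84 on the Pre-CD8 DC arrays, so that the 3 Pre-CD8 DC arrays were the highest of the 9, with an SD of 0.02. The rise was 0.80 ± 0.12, or 1.74-fold (adjusted p = 0.00419). Cox7a2l rose by 0.66 ± 0.12, 1.58-fold (adjusted p = 0.0112), to Pre-CD8 DC values that overlapped those of the Zbtb46- CDPs. Uqcrh rose by 0.52 ± 0.10 (adjusted p = 0.0188) and Sdhb by 0.47 ± 0.09 (adjusted p = 0.0188). These 4 also passed after quantile normalization, where 3.95% of all genes were called higher.

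The other 4 genes were lost after quantile normalization. Uqcrfs1, the Rieske protein, read 9.97, 10.33 and 10.32 in Zbtb46+ CDPs and 10.70, 10.74 and 10.60 in Pre-CD8 DCs, a rise of 0.47 ± 0.11 (adjusted p = 0.0421; 0.110 after normalization). Sdhd rose by 0.43 ± 0.09 (adjusted p = 0.0212), Ndufs3 by 0.42 ± 0.08 (adjusted p = 0.0175) and Ndufa7, an accessory subunit of the matrix arm, by 0.41 ± 0.10 (adjusted p = 0.0417). Cox5a, a matrix-side subunit of complex IV, went the other way, at 11.32, 11.21 and 11.25 in Zbtb46+ CDPs and 11.00, 11.16 and 10.95 in Pre-CD8 DCs, without overlap. Its estimate of -0.23 ± 0.10 did not pass on deposited values (adjusted p = 0.238) and was -0.36 with an adjusted p of 0.0476 after quantile normalization, the 1 lower call there, where 2.96% of all genes were lower. Without both replicate 1 arrays that stood apart, 17 members were higher (12.5% of all genes were), the 8 among them, with Atp5d, Cox6b1, Ndufa8, Ndufb3, Ndufs6, Ndufs7, Ndufs8, Uqcr11 and Uqcrc2 gained. Leaving out Pre-CD8 DC replicate 1 or 2 left 2 calls, and leaving out Pre-CD8 DC replicate 3 left 4.

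**Figure D4:**
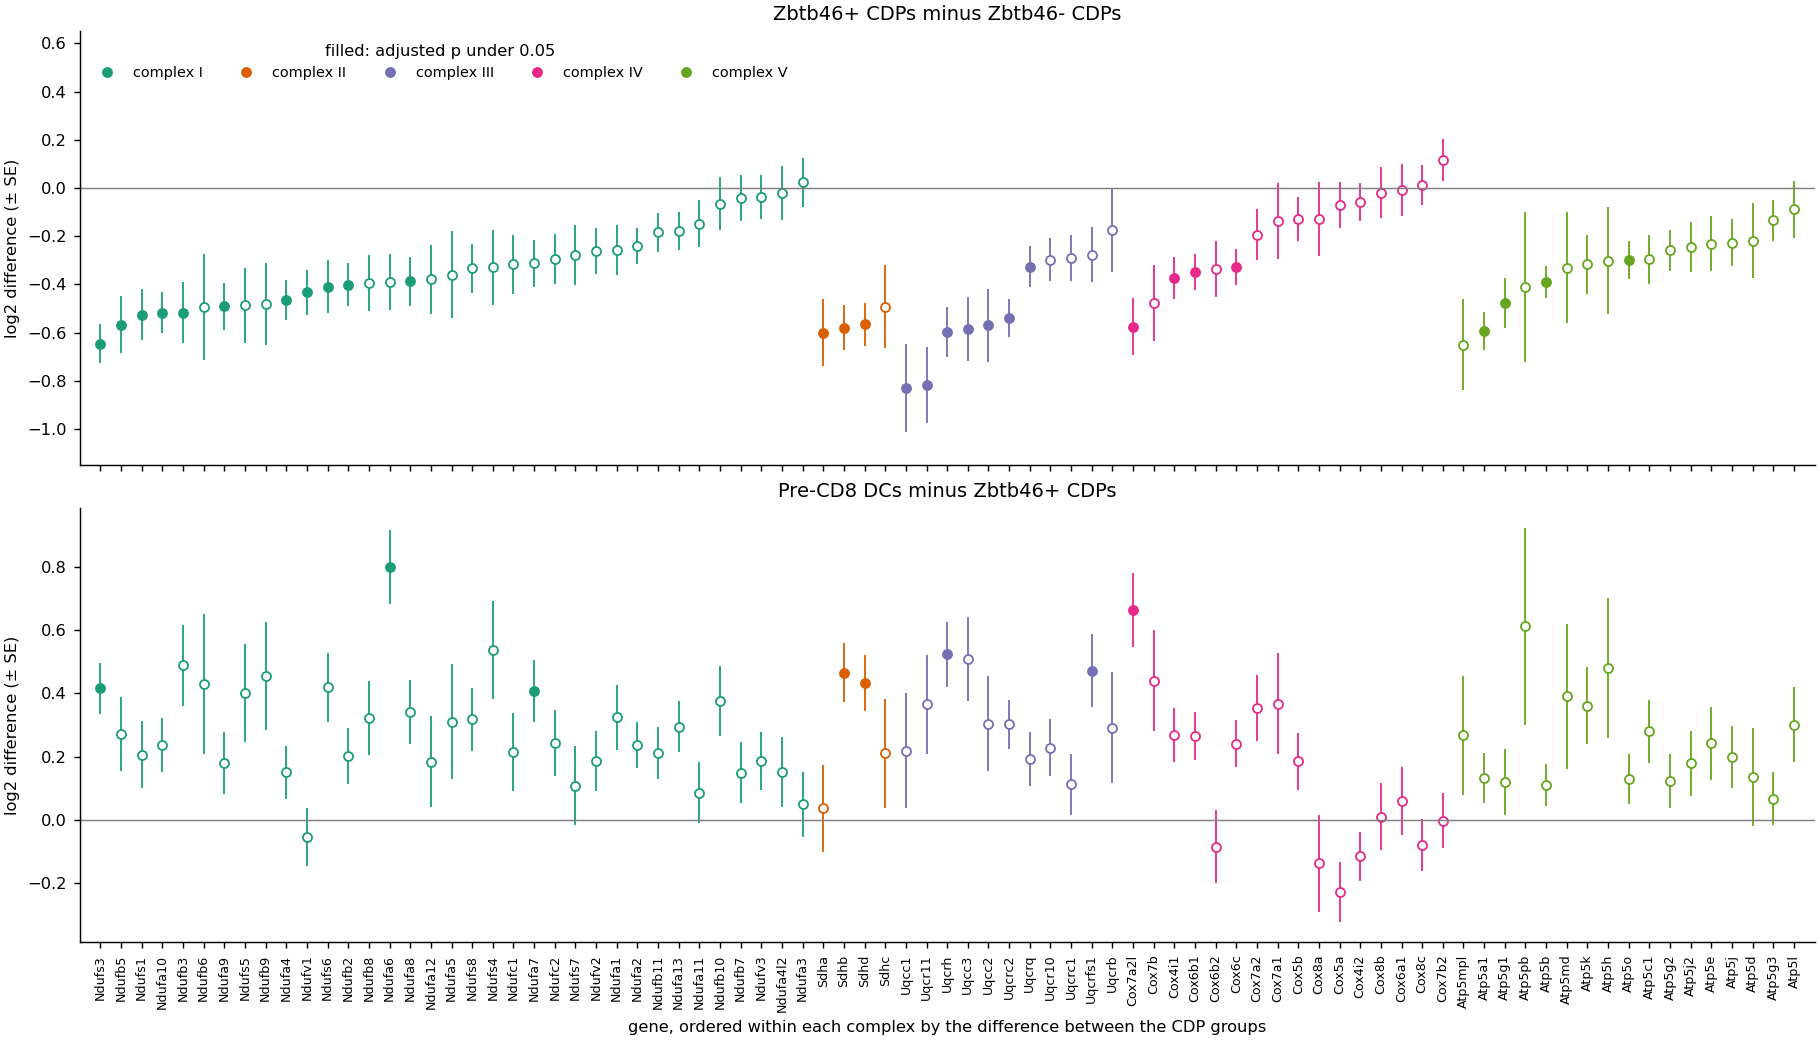
Log2 difference with its SE for each of the 83 members, in the first comparison (above) and the second (below), in the same gene order; filled points have an adjusted p under 0.05 and colours are complexes. The upper panel lies below 0 in 80 genes and the lower above 0 in 76; both panels use the Zbtb46+ CDP arrays, so their mirror image is partly built in.

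Over the whole span, from Zbtb46- CDPs to Pre-CD8 DCs, most members did not differ beyond the spread of the arrays. Of the 83, 7 (8.43%) were lower and 1 higher, against 9.23% and 6.43% of all genes, and the median was -0.07. Among genes with a mean log2 signal of at least 8, 16.2% were lower and 13.6% higher, with a median of -0.05. The lower genes were Ndufa4, Ndufv1, Sdha, Cox6b2, Atp5a1, Atp5b and Atp5g1. Atp5a1 was 0.46 ± 0.08 lower, 1.38-fold (adjusted p = 0.00358), and Ndufv1 0.49 ± 0.09 lower, 1.40-fold (adjusted p = 0.00619). Sdha fell by 0.56 ± 0.14 (adjusted p = 0.022), Cox6b2 by 0.42 ± 0.11 (adjusted p = 0.0368), Ndufa4 by 0.31 ± 0.08 (adjusted p = 0.0323), Atp5b by 0.28 ± 0.07 (adjusted p = 0.0192) and Atp5g1 by 0.36 ± 0.10 (adjusted p = 0.0494). Ndufa6 was the 1 higher member, by 0.41 ± 0.12 (adjusted p = 0.044), and this call was lost in 6 of the 9 fits that left out 1 array, with adjusted p from 0.059 to 0.13 there. Without both replicate 1 arrays that stood apart, Atp5mpl (-0.35, adjusted p = 0.0381) was gained as lower and Cox7a1 (0.39, adjusted p = 0.0229) and Uqcrfs1 (0.26, adjusted p = 0.0467) as higher.

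Set side by side, 5 members were lower in Zbtb46+ than in Zbtb46- CDPs, higher again in Pre-CD8 DCs, and not called between the ends: Cox7a2l, Ndufs3, Sdhb, Sdhd and Uqcrh. They were 6.02% of the members, and 1.28% of all genes and 2.83% of bright genes had this pattern. Another 6 (7.23%, against 4.98% of all and 8.6% of bright genes) were lower in Zbtb46+ CDPs and still lower than the start in Pre-CD8 DCs: Atp5a1, Atp5b, Atp5g1, Ndufa4, Ndufv1 and Sdha. A further 18 (21.7%, against 3.26% and 7.05%) were called only at the first step. Ndufa7 and Uqcrfs1 (2.41%, against 0.517% and 1.22%) were higher only at the second step. Ndufa6 (1.2%, against 1.75% and 3.4%) was higher at the second step and over the whole span. Cox6b2 (1.2%, against 2.5% and 4.04%) was lower only over the whole span. The remaining 50 (60.2%) were not called at all, against 78.0% of all genes and 57.6% of bright genes. In complex II, Sdhb, Sdhd and Sdha had Pre-CD8 DC means of 11.09 ± 0.07, 9.19 ± 0.06 and 10.98 ± 0.27 against Zbtb46- means of 11.20 ± 0.16, 9.32 ± 0.06 and 11.54 ± 0.07 (SD, n = 3).

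Other genes of the pathway, in lists taken from general knowledge of oxidative phosphorylation, had these calls in the first comparison, in which 10.6% of all genes and 20.5% of bright genes were lower. Among 40 assembly factors for complexes I to V, 12 were lower and 0 higher, led by Ndufaf4 (-0.92 ± 0.17, adjusted p = 0.0069), Coa7 (-0.84 ± 0.13, adjusted p = 0.00297) and Ndufaf1 (-0.84 ± 0.17, adjusted p = 0.00994). Of 14 subunits and carriers that the symbol rule leaves out, 7 were lower, among them the complex III heme protein Cyc1 (-0.55 ± 0.08, adjusted p = 0.00281) and the electron transfer flavoprotein subunit Etfb (-0.82 ± 0.08, adjusted p = 2.35e-04), while cytochrome c itself, Cycs, had an estimate of 0.17 ± 0.22 (adjusted p = 0.63). Lower calls numbered 4 of 12 genes of ubiquinone synthesis, 7 of 14 of mitochondrial DNA expression, 15 of 23 of mitochondrial import, and 6 of 10 of the cristae and MICOS list, with 0 higher in each. Tfb2m, a mitochondrial transcription factor, fell by 0.94 ± 0.08 (adjusted p = 1.96e-04), and Hspa9, the matrix chaperone that pulls in proteins, by 1.52 ± 0.13 (adjusted p = 1.38e-04).

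After quantile normalization these lists had 8, 6, 2, 7, 10 and 2 lower calls in the same order, and 1 gene higher among the subunits and carriers, against 8.11% lower among all genes. Without both replicate 1 arrays the lower calls were 15, 7, 3, 8, 13 and 3, against 13.8% of all genes. Again 1 gene was higher among the subunits and carriers. The lists' medians on deposited values were -0.37, -0.41, -0.28, -0.58, -0.53 and -0.41. Of 13 regulators of respiratory genes, Myc, Pprc1 and Gabpb1 were lower and 0 were higher on deposited values, and 2 were lower and 1 higher after quantile normalization. Without both replicate 1 arrays, 6 regulators were lower and 0 higher. Myc read 11.53, 11.46 and 11.54 on the Zbtb46- CDP arrays, 10.36, 9.72 and 9.65 on the Zbtb46+ CDP arrays and 10.76, 10.62 and 10.68 on the Pre-CD8 DC arrays, a fall of 1.60 ± 0.16 (adjusted p = 3.88e-04), followed by a rise of 0.78 ± 0.16 (adjusted p = 0.0243) in Pre-CD8 DCs. Nrf1, whose motif is marked above, had an estimate of 0.16 ± 0.08 (adjusted p = 0.188), and Gabpa, the ETS subunit of GABP, of -0.28 ± 0.15 (adjusted p = 0.259). The 2 probe sets listed for mitochondrially encoded subunits, COX2 and ND3, were not called in any comparison on deposited values, with estimates of 0.09 and 0.05 in the first. In the second comparison their median was -0.39, with 1 called lower after quantile normalization (median -0.51), 1 without both replicate 1 arrays (median -0.64) and 2 with both changes (median -0.74). Their median in the first was 0.07, and 0.28 without both replicate 1 arrays.

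In the second comparison 5 of 40 assembly factors, 4 of 14 genes of mitochondrial DNA expression and 5 of 23 import genes were higher and 0 lower, where 4.76% of all genes and 10.0% of bright genes were higher. Of 12 genes of ubiquinone synthesis and 10 of the cristae list, 0 were called. Without both replicate 1 arrays, 13 assembly factors, 7 genes of mitochondrial DNA expression and 10 import genes were higher. In that fit 12.5% of all genes were higher, and 0 genes of ubiquinone synthesis or the cristae list were called. Ndufaf6, a complex I assembly factor, read 7.97, 7.67 and 7.85 on the Zbtb46- CDP arrays, 7.32, 7.25 and 7.57 on the Zbtb46+ CDP arrays and 8.31, 8.63 and 8.27 on the Pre-CD8 DC arrays. It rose by 1.02 ± 0.13, 2.03-fold (adjusted p = 0.00207), and was also higher than in Zbtb46- CDPs, by 0.57 ± 0.13 (adjusted p = 0.0154). The import genes Timm10 (0.75 ± 0.10, adjusted p = 0.00231) and Tomm5 (0.68 ± 0.09, adjusted p = 0.00215) rose as well, and the aspartate-glutamate carrier Slc25a13 fell by 0.47 ± 0.11 (adjusted p = 0.0309). Over the whole span, Hspa9 was 1.24 ± 0.13 lower (adjusted p = 1.58e-04), Etfb 0.82 ± 0.08 lower (adjusted p = 8.31e-05) and Gpd2, which feeds electrons from glycerol 3-phosphate to ubiquinone, 0.70 ± 0.13 higher (adjusted p = 0.00587).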

How the data were processed

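RMA in Affymetrix Expression Console gave the values, per the submitters' processing notes; versions and settings are not given in the sources used here. The deposited values are the authors' RMA signal intensity for each probe set, on a linear scale from 7.454 to 20455.563, with array medians of 110.2 to 118.0. Log2 was taken and no other scaling applied. Of 28853 probe sets, 21789 carried 1 gene symbol, 1621 carried several and 5443 were not in the 2016 annotation table. Each gene took its probe set with the highest mean over the 9 arrays, which gave 19938 genes. Of the members, 17 had several probe sets, all of 1 sign in the first comparison, and 6 probe sets that list a member together with other symbols were left out.

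Group means were fitted to all 9 arrays with limma 3.58.1 (lmFit, eBayes) in R 4.3.3, with Benjamini-Hochberg adjustment over all genes and calls at an adjusted p under 0.05. Precision is limited by the number of arrays. The script was tested on simulated data. Alternatives were quantile and median scaling, leaving out the 30% dimmest genes, the mean of probe sets, a replicate block, array weights, robust moderation with a trend on intensity, each array left out and fits of only 2 groups. Added after seeing the data were fits without, or with a covariate for, both arrays low in Xist.

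Deviations of same-numbered arrays correlated by 0.51, 0.42 and 0.36 between the CDP groups. Differently numbered arrays gave 0.38 for Zbtb46- replicate 3 with Zbtb46+ replicate 2, and 0.15 for Zbtb46- replicate 2 with Zbtb46+ replicate 3. Replicate 1 of both CDP groups also stood apart in Xist, so these values do not show whether the numbers pair the arrays. The main fit therefore used no pairing, and the replicate block is given as an alternative. Same-numbered arrays correlated by -0.01, -0.03 and 0.03 for Pre-CD8 DCs with Zbtb46- CDPs, and 0.11, 0.07 and 0.17 with Zbtb46+ CDPs, which gives no sign of pairing there.

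Members, gene lists and the naming rule were all chosen with earlier results of these data known. The naming rule took, for each complex and comparison, the 3 called members with the largest fall and the 3 with the largest rise, the 4 Sdh genes, the catalytic and core subunits, the isoform families, members called against the majority, and up to 3 called genes of each pathway list. Members named beyond it were chosen after their values were seen. Promoters came from RefSeq, and Python 3.11.15 made the figures, with pandas 2.3.3 and matplotlib 3.10.9.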

Additional observations from a re-analysis of the deposited data

How the results depend on the processing

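Lower calls in Zbtb46+ against Zbtb46- CDPs numbered 29, and 15 after quantile normalization (also with both arrays low in Xist left out), 48 with array weights, 47 with those arrays as a covariate and 15 to 36 with 1 array left out. The median of -0.33 became -0.19 after quantile normalization, -0.23 without the arrays low in Xist and -0.13 with both changes. In all 21 settings 9 of the 29 were called: Atp5a1, Cox7a2l, Ndufa10, Ndufa4, Ndufs3, Sdhb, Uqcr11, Uqcrc2 and Uqcrh. Higher calls in Pre-CD8 DCs against Zbtb46+ CDPs numbered 8, and 4 (with 1 lower, Cox5a) after quantile normalization with or without the arrays low in Xist, 16 with median scaling, array weights or the covariate, 17 without those arrays, 5 with only 2 groups and 2 to 12 with 1 array left out. Cox7a2l and Ndufa6 were called in all 21 settings, and the median of 0.24 became 0.12 after quantile normalization and 0.088 with those arrays also left out. Against Zbtb46- CDPs, Pre-CD8 DCs had 7 lower and 1 higher: with array weights 26 and 4, with only 2 groups 11 lower, without the arrays low in Xist 3 higher (4 after quantile normalization), with median scaling or an intensity trend 0 higher, and with 1 array left out 2 to 13 lower and 0 to 1 higher. Atp5a1 and Ndufv1 were called lower in all 21 settings. The causes were not tested, and the fits that left out arrays or a group also had fewer arrays.

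With the replicate block, lower calls were 33 in the first comparison, higher calls 7 in the second, where Uqcrfs1 was lost, and lower calls 9 in the third, where Ndufa10, Uqcc1 and Uqcr11 were gained and Ndufa4 lost. Beyond these and the genes given in the report, the block changed no call of a member. Of the tissue-restricted isoforms, 6 had signals not shown to lie above background, where differences may be understated.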
